A study of Mus musculus with 12 samples.

Results

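The cytosolic ribosomal protein genes encode the protein part of the ribosome that works outside mitochondria. In the basolateral amygdala, 88 of the 22564 genes in the mRNA table belonged to this family by name. They were chosen as the rows whose symbol begins with Rpl or Rps followed by a digit, a, p0, p1, p2 or sa, without pseudogene names (-ps) and without the Rps6k kinases. Of these, 43 encode proteins of the large subunit, 31 proteins of the small subunit and 3 the acidic proteins of the P stalk, and 10 are paralogues or copies of another member. The name rule also took in Rps19bp1, a protein that binds RPS19 and is not part of the ribosome. FPKM is the number of fragments per kilobase of transcript, scaled to the mapped fragments of a library. Averaged over all libraries, 84 of the 88 reached 0.5 FPKM and entered the tests together with 13433 other genes. Rpl10l, Rpl39l, Rpl3l and Rps4y2 did not reach it.

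Retrieval-extinction mice (RE) had been fear conditioned to a tone and heard that tone once as a reminder before extinction training. Extinction mice (E) had been conditioned and then trained with the tone and no shock, and fear conditioned mice (F) had received tone and foot shock only. Control mice spent the same session without shock. All were male C57BL/6J mice aged 10 weeks, with 3 animals and 1 library per animal in each group, and the amygdala was dissected from coronal slices. Control and F tissue was collected after conditioning and E and RE tissue after the last extinction session, so training and day cannot be told apart between those pairs of groups. All 9 genes of a list of principal neuron markers were detected, with sums of 904 to 1580 FPKM over the libraries.

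Each ribosome is a large and a small subunit, and most of its proteins are present in a single copy. Most ribosomal protein mRNAs begin with a run of pyrimidines at the cap, the terminal oligopyrimidine (TOP) motif. Through it the kinase mTOR, acting by way of the cap-binding protein LARP1, controls how strongly they are translated. In neurons ribosomes and these mRNAs are also found in dendrites and axons. Measurements of mRNA level do not show how much of it is translated.

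Start sites of 65 of the 88 genes were found in the RefSeq promoter table (mouse build GRCm38.p6). The letters CTTTC stood on the sense strand within 15 bases of the annotated start in 17 of these 65 genes (26.2%), against 4.76% of all 27025 genes in that table. CTTCC, which can overlap CTTTC at its end, stood in the same window in 13 of them, against 7.83% of all genes. Other motifs were looked for on both strands of the whole 300 bases of each promoter. CCGGAAG, the core bound by ETS factors such as GABPA, was found in 40.0% of the members and 9.93% of all genes, and GGGCGG, a GC box, in 63.1% and 38.2%. An annotated start is not a measured cap, and a match is a description of the letters. The windows of the genes on which the results below turn are given so that the pyrimidine runs can be read directly, with 15 bases before the annotated start and 15 from it on, and with CTTTC and CTTCC in capitals. Rps24, Rps26, Rpl38, Rps9 and Rpl41 were among the genes with the clearest differences between F and control mice. Rps15a, Rps27, Rplp2 and Rpl18 were among those that varied most between libraries or followed the kind of library. The window of Rps12, which did both, is not shown and held neither motif.
Rps24 (chr14:24490663-24490692, plus strand): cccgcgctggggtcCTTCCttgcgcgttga
Rps26 (chr10:128626492-128626521, minus strand): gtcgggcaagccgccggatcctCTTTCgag
Rpl38 (chr11:114668565-114668594, plus strand): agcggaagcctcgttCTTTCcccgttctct
Rps9 (chr7:3704026-3704055, plus strand): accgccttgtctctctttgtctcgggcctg
Rpl41 (chr10:128549154-128549183, minus strand): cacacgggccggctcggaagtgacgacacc
Rps15a (chr7:118116133-118116162, minus strand): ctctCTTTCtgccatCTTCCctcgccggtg
Rps27 (chr3:90213634-90213663, minus strand): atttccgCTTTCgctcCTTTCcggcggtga
Rplp2 (chr7:141447636-141447665, plus strand): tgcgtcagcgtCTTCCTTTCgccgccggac
Rpl18 (chr7:45718056-45718085, plus strand): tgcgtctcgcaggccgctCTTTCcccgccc

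The windows of Rps9 and Rpl41 held neither motif, although that of Rps9 is rich in C and T. Between F and control mice, the median log2 fold change was -0.24 for the 16 tested genes with CTTTC in the window and -0.20 for the 46 tested genes of the promoter table without it.

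Sequencing gave 7653907 (E 1) to 23167358 (control 1) fragments in the mRNA table, of which 45295 to 145477 were assigned to members. A tested member had a median of 882 fragments per library, and 10 of the 88 had fewer than 100. Libraries differed in a way the groups do not explain. On the axis of largest variance among the lncRNA levels (18.4% of it), RE 4, E 2, F 1 and control 2 lay at 46.4 or above and the other 8 libraries at -21.4 or below. Each group held 1 of these 4 libraries, which are called below the libraries that stand apart, and results are given with and without them. Ribosomal protein genes have many processed copies in the genome, and reads from these copies and from the gene itself can be divided differently by the alignment, so single values carry an uncertainty that replicates do not show.

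The members took up a small and similar share of the mRNA in every library. Their summed FPKM was 2.62, 2.99 and 2.54% of the sum of all genes in RE 3, 4 and 5, and 2.49, 2.79 and 2.67% in E 1, 2 and 3. In F 1, 2 and 3 it was 2.72, 2.46 and 2.44%, and in control 1, 2 and 3 it was 2.77, 3.46 and 2.79%. In each group the highest share belonged to the library that stands apart, and control 2 was the highest of all. Among the 8 other libraries F 2 and F 3 were the lowest, and every trained library was below the controls (2.77 and 2.79%). The group means were 2.71 ± 0.24% in RE, 2.65 ± 0.15% in E, 2.54 ± 0.16% in F and 3.01 ± 0.39% in control mice (SD, n = 3 each). The ranges of F and control mice did not overlap, but the highest F and the lowest control library were nearly level.

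**Figure D1:**
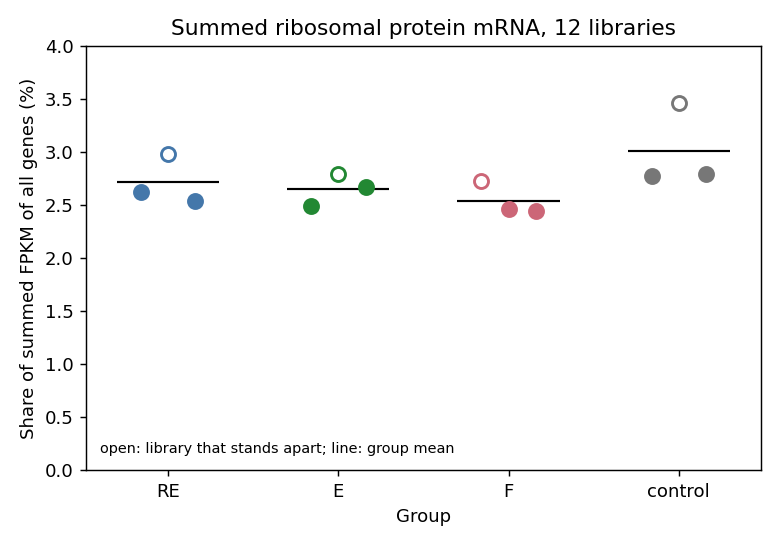
Summed FPKM of the 88 ribosomal protein genes as a percentage of the summed FPKM of all genes (y axis), by group (x axis), with 1 point per library and a line at the group mean. Open points are the 4 libraries that stand apart. F libraries lie at 2.44 to 2.72% and control libraries at 2.77 to 3.46%.

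The most abundant members were Rplp1, Rps15, Rpl26, Rpl13a and Rps24, with means of 338, 324, 302, 293 and 279 FPKM over the 12 libraries. Together they held 17.7% of the summed FPKM of the family. Rplp1 encodes a protein of the P stalk, which binds elongation factors, and Rps15 and Rps24 encode small subunit proteins. RPL26 is a large subunit protein that also binds the mRNA of the tumour suppressor p53, and RPL13A is known in human cells for silencing inflammatory mRNAs after its release from the ribosome. Apart from the paralogues and Rps19bp1, every member exceeded 17 FPKM on average. The lowest of them, the row named Rpl24 with 17.6 FPKM, carried the gene identifier of its neighbour Zbtb11, so its value may not be that of Rpl24.

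At the other end were the copies with the lowest values. Rpl10l, a retrogene copy of Rpl10 known from the testis, was listed at 0 in all 12 libraries. Rpl39l, likewise known from male germ cells, had values above 0 in RE 3, RE 4 and F 1 only and a mean of 0.060 FPKM. Rpl3l, the copy of Rpl3 known from heart and skeletal muscle, averaged 0.18 FPKM, or 0.099% of Rpl3. The row named Rps4y2 averaged 0.12 FPKM. GENCODE gives its gene identifier to Rps4l, whose transcript in the lncRNA table averaged 10.7 FPKM, so this row does not show the level of that gene. Rps3a2 averaged 1.00 FPKM from only 11.8 fragments per library.

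Other copies had higher values. Rpl22l1, a paralogue that binds RNA like RPL22, stood at 22.8% of the level of Rpl22 on average, with 23.8, 40.9 and 13.6% in RE 3, 4 and 5, against 18.1, 28.7 and 18.7% in control 1, 2 and 3. Rps27l, a p53 target in human cells, stood at 14.9% of Rps27, and Rpl7l1, whose yeast counterpart takes part in ribosome assembly, at 8.40% of Rpl7. Rpl36al, an intronless copy of Rpl36a, was about as abundant as its partner (90.9%). The ratio of these 2 near-identical genes followed the kind of library. Rpl36al was at 113 to 140% of Rpl36a in the 4 libraries that stand apart and at 61.3 to 97.2% in the 8 others, without overlap. Reads that fit both copies can be assigned to either, so this ratio is uncertain.

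Fear conditioned mice had lower levels of most ribosomal protein mRNAs than control mice, but no single gene passed the test across all genes. In this comparison 78 of the 84 tested members had a fold change below 0, against 48.6% of all 13517 tested genes, and the median log2 fold change was -0.21 for the members and 0.01 for all genes. In the moderated test of limma with Benjamini-Hochberg adjustment over all genes, 0 members and 0.00% of all genes passed an adjusted p of 0.05. An unadjusted p under 0.05 with a lower level in F was found for 21 of 84 members (25%), against 2.89% of all genes, and with a higher level for 0 members, against 4.19% of all genes. In edgeR on the recovered fragments with TMM factors 0 members passed as well, against 0.00740% of all genes. There 32 members had an unadjusted p under 0.05, all lower in F, against 8.62% of all genes in either direction. The 3 F libraries lay below the 3 control libraries for 23 members, against 5.03% of all genes. Large and small subunit genes had similar medians (-0.22 for 43 genes and -0.23 for 31 genes), with -0.15 for the 3 stalk genes and -0.08 for the 6 paralogues tested.

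The size of this difference depended on control 2. Without that library the median of the members was -0.08 and that of all genes 0.06, with 58 members lower in F, while leaving out any other library of the 2 groups gave medians of -0.26 to -0.17. Within the 8 libraries that do not stand apart, the median was -0.17 for the members and 0.03 for all genes, with 71 of 84 members lower in F. Between the 2 libraries that stand apart, F 1 and control 2, 79 of 84 members were lower in F 1, with a median of -0.31 against -0.03 over all genes. With a term for the kind of library in the fit, 39 members had an unadjusted p under 0.05, all of them lower in F, against 4.81% of all genes with a lower level in that fit. After adjustment 0 members passed.

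**Figure D2:**
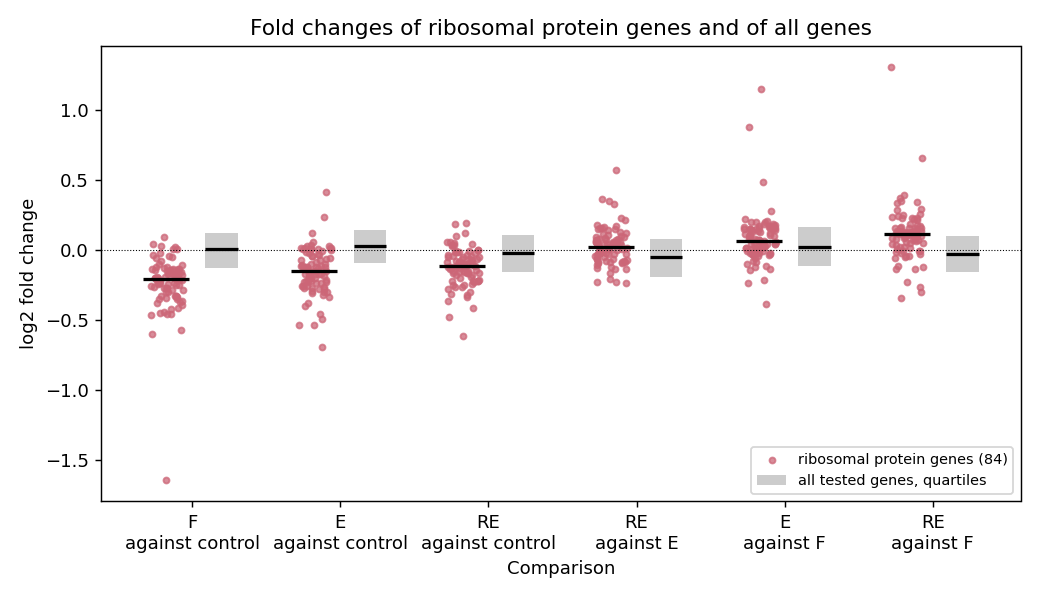
Log2 fold change (y axis) of each of the 84 tested ribosomal protein genes (points, with a line at their median) in the 6 comparisons (x axis), beside the quartile range (grey bar) and the median (line) of all 13517 tested genes. The median of the members is -0.21 in F against control and 0.12 in RE against F.

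Among the small subunit genes, Rps24 had the smallest p of the family in F mice. RPS24 takes part in the maturation of the small subunit, and mutations of the human gene are a cause of Diamond-Blackfan anaemia. Its level was 246, 242 and 229 FPKM in F 1, 2 and 3, against 302, 326 and 351 FPKM in control 1, 2 and 3. All F values were thus below all control values, and E (281, 267 and 265 FPKM in E 1, 2 and 3) and RE (279, 258 and 306 FPKM in RE 3, 4 and 5) lay mostly between them. The log2 fold change of F against control was -0.45 (SE 0.10), with an adjusted p of 0.225 in limma. Rps24 is at chr14:24487125-24496959 (GRCm38, plus strand).

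Rps9, a small subunit protein known from bacteria and yeast for its part in accurate decoding, was lowest in F mice. It measured 69.9, 74.6 and 71.0 FPKM in F 1, 2 and 3, against 85.7, 92.1 and 92.1 FPKM in control 1, 2 and 3. In E 1, 2 and 3 it measured 83.6, 83.6 and 95.5 FPKM, and in RE 3, 4 and 5 it measured 87.6, 87.5 and 88.1 FPKM. Every F library was therefore below each of the 9 other libraries. The log2 fold change was -0.32 (SE 0.08) in F against control, 0.28 (SE 0.08) in E against F and 0.29 (SE 0.08) in RE against F, with adjusted p of 0.306, 0.191 and 0.635 in limma. These 3 comparisons share the F libraries.

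Rps26 was lower in all 3 trained groups. RPS26 sits at the exit of the mRNA channel, where it touches the bases before the start codon. The RE libraries 3, 4 and 5 had 181, 140 and 177 FPKM, the E libraries 1, 2 and 3 had 187, 167 and 187 FPKM and the F libraries 1, 2 and 3 had 152, 181 and 161 FPKM, against 200, 220 and 239 FPKM in control 1, 2 and 3. None of the 9 trained libraries reached the lowest control, though the comparisons share those controls. The log2 fold changes were -0.41 in RE, -0.29 in E and -0.42 in F (SE 0.12 each), with adjusted p of 0.230, 0.932 and 0.398 in limma.

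Rpl38, a large subunit protein known in mouse embryos for the translation of Hox mRNAs, had its highest mean in control mice as well. It measured 99.1, 110 and 119 FPKM in F 1, 2 and 3 and 125, 85.8 and 131 FPKM in E 1, 2 and 3, against 154, 165 and 167 FPKM in control 1, 2 and 3. RE 3, at 158 FPKM, was within the control range, and RE 4 and RE 5 were below it (121 and 115 FPKM). The log2 fold change was -0.57 (SE 0.16) in F, -0.53 in E and -0.32 in RE, with adjusted p of 0.398, 0.858 and 0.597 in limma.

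**Figure D3:**
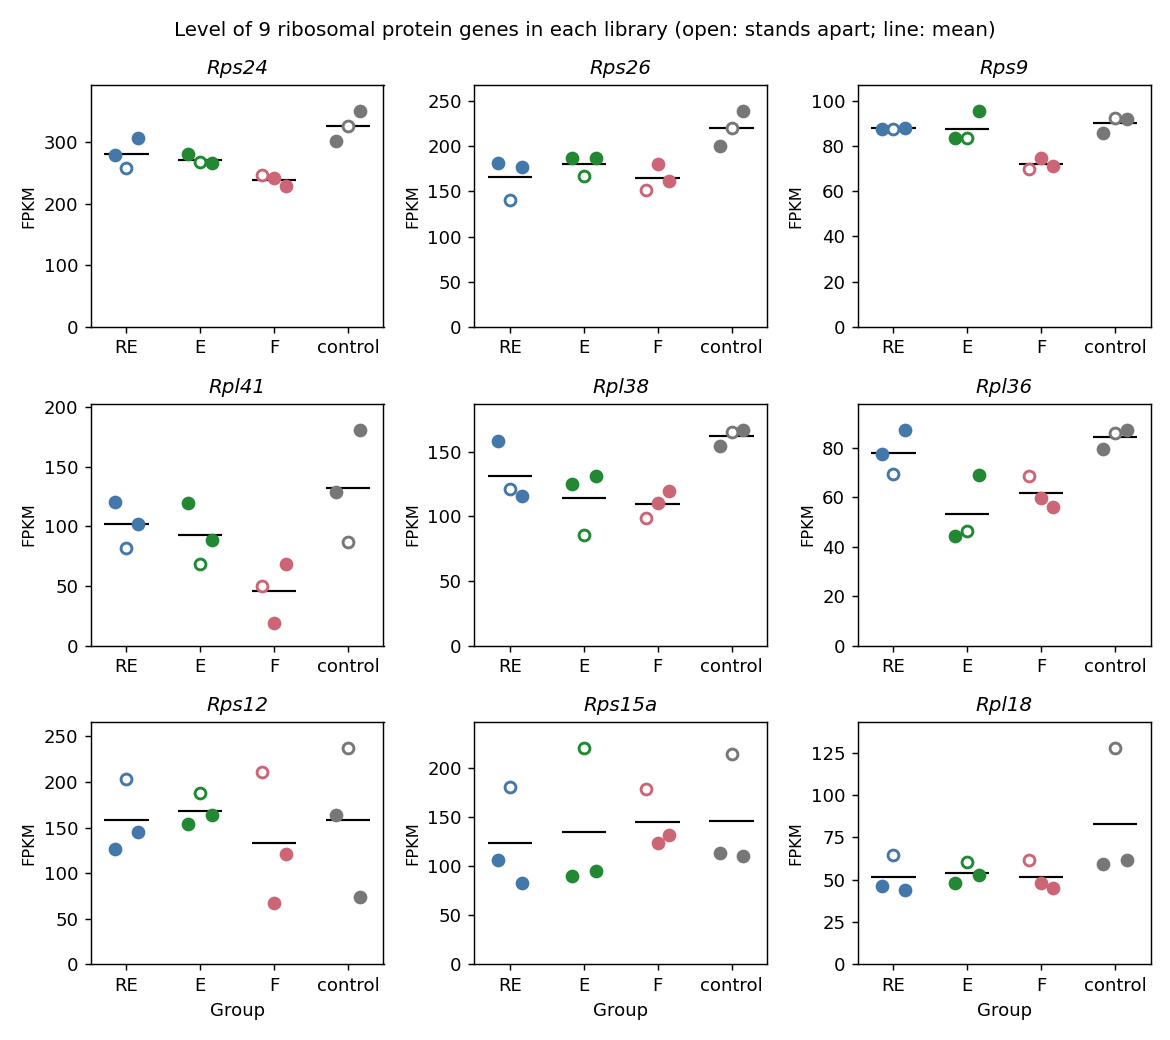
Level in FPKM (y axis, from 0) of 9 ribosomal protein genes by group (x axis), with 1 point per library and a line at the group mean. Open points are the libraries that stand apart. In Rps24, Rps26, Rps9 and Rpl38 the F libraries lie below the control libraries, whereas Rps12 and Rps15a are highest in the open points.

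Rpl41, which encodes the smallest protein of the large subunit, had the largest difference of the family. In the mRNA table it measured 49.7, 19.3 and 68.7 FPKM in F 1, 2 and 3, against 129, 86.6 and 181 FPKM in control 1, 2 and 3. The groups did not overlap, and the log2 fold change was -1.64 (SE 0.40) with an adjusted p of 0.305 in limma. Here the table divides 1 gene. A transcript of Rpl41 of 345 bases (uc029rju.1) was listed in the lncRNA table as overlapping its exons in sense, and measured 169, 265 and 174 FPKM in F 1, 2 and 3, against 191, 234 and 177 FPKM in control 1, 2 and 3. F 2 was thus the lowest library for the mRNA row and the highest for the noncoding row. Added together, both rows gave 219, 285 and 242 FPKM in F, against 320, 321 and 358 FPKM in control mice. The difference of the mean log2 values was -0.43 for the sum, in place of -1.64 for the mRNA row. The sum was 214, 177 and 228 FPKM in E 1, 2 and 3 and 252, 235 and 271 FPKM in RE 3, 4 and 5, so all 9 trained libraries were below the 3 controls. The part that the division of reads has in the fold change of the mRNA row was not tested further.

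**Figure D4:**
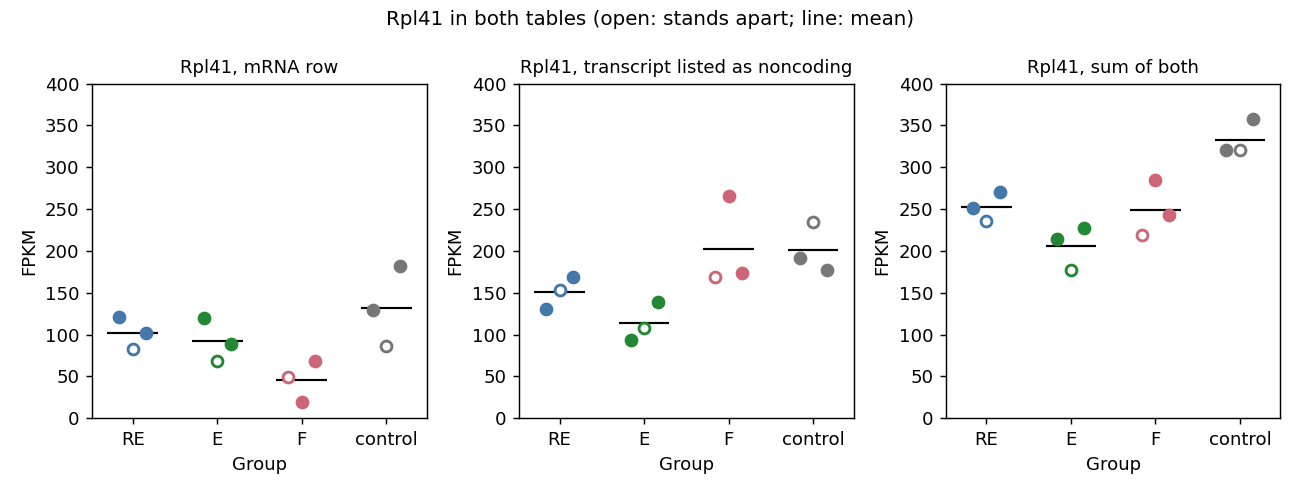
Rpl41 in FPKM (y axis) by group (x axis) for its row in the mRNA table (left), the transcript listed as noncoding (middle) and the sum of both (right), with 1 point per library, open for libraries that stand apart, and a line at the mean. In F mice the mRNA row lies at 19.3 to 68.7 FPKM and the sum at 219 to 285 FPKM, against sums of 320 to 358 FPKM in control mice.

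Rps27 was divided in the same way. RPS27, also called metallopanstimulin, is a small subunit protein with a zinc finger. Its row in the mRNA table held only 83.8 fragments per library on average, with 29.5, 81.8 and 56.8 FPKM in F 1, 2 and 3 and 42.0, 63.2 and 50.3 FPKM in control 1, 2 and 3. The groups overlapped widely (log2 fold change 0.01, SE 0.40). A second transcript in the lncRNA table (NR_033727) averaged 20.9 ± 3.5 FPKM in F and 29.1 ± 7.7 FPKM in control mice (SD, n = 3 each).

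The P stalk genes and a set of members chosen for their known roles (Rpl5, Rpl11, Rps6, Rpsa, Rpl10, Rps3, Rps19 and Rpl13a) had no adjusted p under 0.83 in limma between F and control mice. Rplp0, Rplp1 and Rplp2 had log2 fold changes of -0.15 (SE 0.23), -0.17 (SE 0.13) and -0.14 (SE 0.27). RPL5 and RPL11 form with 5S RNA the particle that binds MDM2 and so stabilises p53. Rpl5 had 86.9 ± 2.1 FPKM in F and 89.9 ± 14.6 FPKM in control mice, and Rpl11 had 129 ± 9.3 and 149 ± 22.3 FPKM (SD, n = 3 each). Rps6, whose protein is phosphorylated by S6 kinases and is widely used as a marker of neuronal activity, had 209, 182 and 172 FPKM in F 1, 2 and 3, against 197, 255 and 201 FPKM in control 1, 2 and 3. F 1 was within the control range, and the log2 fold change was -0.21 (SE 0.13). Rpsa, also the laminin receptor, stood at -0.20 (SE 0.20), Rpl10 at -0.27 (SE 0.22), Rps3, also a DNA repair enzyme, at -0.12 (SE 0.14), Rps19, the gene first linked to Diamond-Blackfan anaemia, at -0.27 (SE 0.22) and Rpl13a at -0.27 (SE 0.19). Rpl26, one of the most abundant members, stood at -0.38 (SE 0.15), with an adjusted p of 0.621. Without control 2 the fold changes of Rplp0, Rplp2, Rpsa, Rpl5, Rpl10 and Rps3 changed sign.

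Rpl24 (0.10), Rps15a (0.04) and Rpl21 (0.03) were the members with the highest fold changes in F, and each difference was within the spread of the replicates. The second-largest negative value after Rpl41 was that of Rpl18 (-0.60, SE 0.26). Rpl18 had 61.5, 48.2 and 45.4 FPKM in F 1, 2 and 3, against 59.2, 128 and 61.8 FPKM in control 1, 2 and 3, so that the difference rested largely on control 2.

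Extinction mice also had lower levels than control mice. Of the 84 tested members 69 had a fold change below 0, against 43.0% of all genes, with a median of -0.14 for the members and 0.03 for all genes. 0 members passed the adjusted p of limma, as did 0.00% of all genes, and 10 members had an unadjusted p under 0.05 with a lower level, against 1.35% of all genes. The E libraries lay below the controls without overlap for 15 members, against 3.02% of all genes. In edgeR 22 members had an unadjusted p under 0.05, all lower in E, against 5.22% of all genes in either direction. After adjustment 0 members passed, against 0.0370% of all genes. Without control 2 the median was -0.04 and 47 members were lower. Within the 8 libraries that do not stand apart it was -0.09, against 0.06 over all genes, with 53 members lower, and between E 2 and control 2 it was -0.29, against -0.03 over all genes, with 76 members lower.

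Rpl36, a large subunit protein, had the smallest p in E mice. It measured 44.3, 46.6 and 69.3 FPKM in E 1, 2 and 3, against 79.7, 86.0 and 87.5 FPKM in control 1, 2 and 3. E 3 was nearer to the controls than to the other E libraries. The log2 fold change was -0.69 (SE 0.16) with an adjusted p of 0.466 in limma. Rpl18 (-0.53) and Rpl38 (-0.53) were the other members with the largest negative values in E, and Rps12 (0.24, SE 0.42), Rpl17 (0.12) and Rpl24 (0.06) were those with the largest positive ones, none of which passed.

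The median difference from the controls was smallest in retrieval-extinction mice. Here 71 of 84 members had a fold change below 0, against 54.3% of all genes, with a median of -0.11 for the members and -0.02 for all genes. 0 members passed the adjusted p of limma, against 0.0666% of all genes, and 4 had an unadjusted p under 0.05 with a lower level, which at 4.76% is near the 4.95% of all genes. In edgeR 4 members had an unadjusted p under 0.05, against 12.4% of all genes, and 0 passed after adjustment, against 0.873% of all genes. Without control 2 the median of the members was 0.01 and that of all genes 0.03, with 41 of 84 members lower. Within the 8 libraries that do not stand apart, which also lack control 2, the median was -0.07 for the members and -0.01 for all genes, with 62 members lower. Between RE 4 and control 2 it was -0.19, against -0.04 over all genes, with 70 members lower. The largest negative values were those of Rpl18 (-0.61), Rpl7a (-0.48) and Rps26, and the largest positive ones those of Rps3a3 (0.19, SE 0.14), Rps12 (0.13) and Rpl5 (0.10).

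The comparisons of F, E and RE with control mice use the same 3 control libraries, so the lower levels in the 3 trained groups are not separate observations. The trained groups were also compared with each other. In E against F 61 of 84 members had a fold change above 0, against 54.2% of all genes, with a median of 0.07 for the members and 0.02 for all genes. In RE against F 66 of 84 were above 0, against 44.0% of all genes, with medians of 0.12 and -0.03, and 6 members had an unadjusted p under 0.05, all higher in RE, against 2.84% of all genes. In E against F 3 members were higher at an unadjusted p under 0.05, against 6.27% of all genes. 0 members passed the adjusted p of limma in either comparison, against 0.0814% of all genes in E against F and 0.00% in RE against F. In edgeR 2 members in E against F had an unadjusted p under 0.05, against 13.2% of all genes, and 0 passed after adjustment, against 0.666% of all genes. In RE against F 6 members had one, against 8.33% of all genes, and 0 passed after adjustment, as did 0.00% of all genes. Within the 8 libraries that do not stand apart, 64 members were higher and 20 lower in E than in F (median 0.10), against 44.9% of all genes lower (median 0.03). There 63 were higher and 21 lower in RE than in F (median 0.09), against 57.1% of all genes lower (median -0.04). Between the libraries that stand apart, 46 were higher and 38 lower in E 2 than in F 1 (median 0.03), against 48.6% of all genes lower (median 0.01). In RE 4 against F 1, 64 were higher and 20 lower (median 0.11), against 51.2% of all genes lower (median -0.01).

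Rps9 and the mRNA row of Rpl41 had the clearest values in both. That row of Rpl41 was at 1.16 (SE 0.40) in E against F and 1.31 (SE 0.40) in RE against F. The sum of both Rpl41 rows did not show this. Its means were 206 FPKM in E, 253 FPKM in RE and 249 FPKM in F, so E was below F and RE near it. Rpl15, a large subunit protein, was at 0.40 (SE 0.17) in RE against F through the FPKM value of RE 5. It was 40.5 FPKM, against 22.6 and 26.7 FPKM in RE 3 and 4 and 21.8, 23.5 and 20.8 FPKM in F 1, 2 and 3. In recovered fragments RE 5 did not stand out from RE 4, with 676 of 13458830 against 767 of 14779298. Why FPKM and fragments differ was not tested. Rps12 had positive values in both comparisons (0.49 and 0.37, SE 0.42 each), but its F libraries ranged widely, at 211, 67.6 and 121 FPKM in F 1, 2 and 3. The lowest values were those of Rps27 (-0.39), Rpl36 (-0.23) and Rps15a (-0.21) in E against F, and of Rpl7a (-0.34), Rps15a (-0.29) and Rps19bp1 (-0.26) in RE against F.

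Between RE and E mice, the members were nearly balanced. In this comparison 50 of 84 members had a fold change above 0, against 39.7% of all genes, with medians of 0.02 for the members and -0.05 for all genes. 0 members passed the adjusted p of limma, against 0.614% of all genes, and 1 had an unadjusted p under 0.05 with a higher level in RE, against 3.58% of all genes. The direction depended on single libraries. Without RE 4 the median was -0.04 and 32 members were above 0, and without RE 5 it was 0.07 with 61 above 0. Within the 8 libraries that do not stand apart, 43 members were above 0 and 41 below (median 0.01), against 60.3% of all genes below 0 (median -0.06). Between RE 4 and E 2, 63 were above 0 and 21 below (median 0.11), against 51.9% of all genes below 0 (median -0.01). In edgeR 4 members had an unadjusted p under 0.05, against 12.2% of all genes, and 0 passed, against 1.28% of all genes. The 1 member of limma was Rpl36, with 77.7, 69.6 and 87.2 FPKM in RE 3, 4 and 5 and the lower E values given above. All RE values exceeded all E values, those of RE 4 and E 3 by little. The log2 fold change was 0.57 (SE 0.16) with an adjusted p of 0.162 in limma. Leaving out E 3 gave 0.78 and an adjusted p of 0.025 in limma, the only call of a member under any alternative. In that fit 69 of the 13517 tested genes passed. Rps27 (0.37) and Rpl15 (0.35) followed, and Rpl7l1, Rpl7a and Rpl17 had the largest negative values (-0.23, -0.23 and -0.20).

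Single members also differed between the kinds of library. In the libraries that stand apart 62 of 84 members were higher than in the others, close to the 67.7% of all tested genes, and the median difference on the log2 scale was 0.18 for the members and 0.11 for all genes. The family was not uniform in this. Rps15a had 181 FPKM in RE 4, 220 FPKM in E 2, 179 FPKM in F 1 and 214 FPKM in control 2, while the 8 other libraries lay between 82.6 and 132 FPKM. Its difference of 0.91 in FPKM was the largest of the family, followed by Rps12 (0.79) and Rplp2 (0.65). In recovered fragments the gap of Rps15a was narrower. E 2 had 1696 of 15949994 fragments and E 1 had 748 of 7653907, a similar share, against 220 and 90.5 FPKM. RE 4 (1897 of 14779298) remained above RE 3 (1027 of 12134764). Why FPKM and fragments differ was not tested. Rps12, a small subunit protein known in flies for its part in cell competition, was highest in the library that stands apart in each group. In the opposite direction stood Rpl36a (-0.69), Rps27 (-0.63), Rps28 (-0.51) and Rpl41 (-0.35).

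The members with the largest spread over the 12 libraries among those with a mean of at least 1 FPKM were Rpl41, Rps12, Rps27, Rps15a and Rpl18, with SDs of 0.82, 0.56, 0.53, 0.49 and 0.41 on the log2 scale. The median SD was 0.19 for the members and 0.22 for all tested genes. Rpl4 was among the steadiest, with 161 to 195 FPKM in the 12 libraries (SD 0.08). The level of 46 of the 84 members was highest in control 2, and that of 26 was lowest in F 3. As a description over the 12 libraries, which share depth and kind, the median pairwise correlation of members was 0.39.

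**Figure D5:**
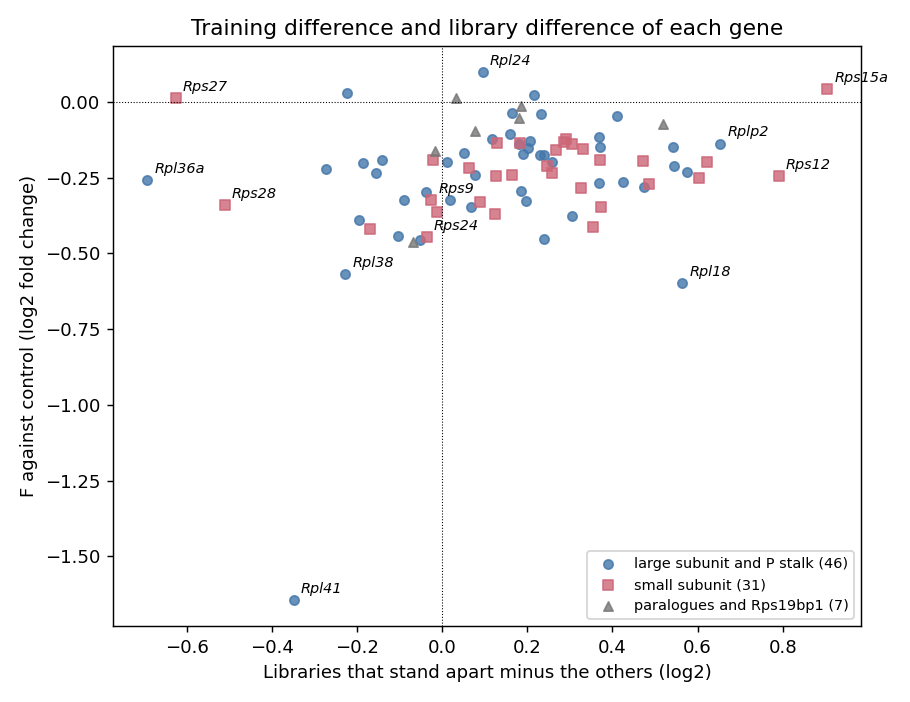
Each point is 1 of the 84 tested ribosomal protein genes, with the mean log2 difference between the 4 libraries that stand apart and the 8 others on the x axis and the log2 fold change of F against control on the y axis. Symbols separate large subunit and stalk, small subunit, and paralogues with Rps19bp1. Most points lie below 0 on the y axis at any x, with Rpl41 at -1.64, while Rps15a (0.91) and Rpl36a (-0.69) mark the ends of the x axis.

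Neighbouring parts of the translation machinery were compared through lists. Fau and Gnb2l1, the gene of RACK1, are ribosomal protein genes whose names do not follow the rule. Their log2 fold changes in F against control were -0.08 (SE 0.18) and -0.02 (SE 0.25), each smaller than its SE. Of 17 translation factors whose mRNAs are known TOP mRNAs, 12 were lower in F, but the median was only -0.01, close to the 0.01 of all genes. The most abundant, Eef1a1, the factor that brings aminoacyl-tRNA to the ribosome, was at -0.30 (SE 0.12), and Tpt1 and Eef2 were at -0.01 (SE 0.10) and -0.09 (SE 0.15). Of 48 ribosome biogenesis genes 25 were lower in F (median -0.01), of 76 mitochondrial ribosomal proteins 43 (median -0.02), of 36 proteasome subunits 20 (median -0.01) and of 18 genes of mTOR and LARP1 regulation 6 (median 0.04). Among 81 nuclear genes of the respiratory chain 73 were lower in F, with a median of -0.11. In none of these lists did a gene pass the adjusted p of limma in this comparison.

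Ribosomal protein mRNAs are short, and 749 other tested genes with an annotated transcript under 1000 nt had a median of -0.09 in F against control, against 0.01 for the 12380 longer ones. The members (-0.21) were below both, and the part of transcript length was not tested. Markers of cell types moved with the same comparison. All 9 principal neuron markers were higher in F (median 0.50, sums of 1464 to 1580 FPKM in F and 1048 to 1286 FPKM in control mice), as were 9 of 10 endothelial markers (median 0.28, 84.8 to 94.8 and 65.6 to 74.7 FPKM). All 10 oligodendrocyte markers were lower (median -0.50, 663 to 913 and 1014 to 1306 FPKM), as were 9 of 10 microglial markers (median -0.20, 159 to 171 and 170 to 201 FPKM), 8 of 8 meningeal markers (median -0.51, 18.0 to 33.3 and 27.4 to 49.3 FPKM) and 11 of 11 markers of striatal spiny neurons (median -0.38, 344 to 922 and 297 to 1434 FPKM). Of the genes in these lists none was at 0 in every library. Astrocyte markers (8 of 9 lower, median -0.10) and blood markers (5 of 5 higher, median 0.19) moved with smaller or less even values. So did genes of the mitochondrial genome (10 of 13 lower, median -0.49). Only 3 choroid plexus and 5 hypothalamic markers were high enough to be tested. The choroid plexus markers were lower in F in 3 of 3 (median -0.76, 5.54 to 50.7 and 6.03 to 240 FPKM). The hypothalamic ones were lower in 3 of 5 (median -0.69, 3.36 to 15.5 and 3.23 to 32.1 FPKM). In both lists the highest control sum was that of control 2. In bulk tissue fewer cells of a type and less RNA per cell cannot be told apart, and the part of tissue composition in the levels of ribosomal protein mRNAs was not tested.

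In E against control the same lists gave other values. There 10 of 10 endothelial markers were higher (median 0.76), 7 of 9 principal neuron markers lower (median -0.13) and 8 of 10 oligodendrocyte markers higher (median 0.23). Striatal (11 of 11, median 0.83) and meningeal markers (8 of 8, median 0.55) were also higher. In RE against control all 9 principal neuron markers were higher (median 0.43), 8 of 10 oligodendrocyte markers higher (median 0.13) and 8 of 8 meningeal markers lower (median -0.73). Of the striatal markers 9 of 11 were higher in RE (median 0.59). The part of composition was not tested in these comparisons either.

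Ribosomal protein genes were absent from the circular RNA data. Of 13957 circRNAs with 180744 back-splice junction reads, 0 came from a member, which allows a share of up to 0.00166% of the junction reads (3 reads, for counting error only). Among 6440 other genes averaging 10 FPKM or more, 44.2% hosted at least 1 circRNA, while 79 members exceeded that level and hosted 0.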

How the data were processed

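Libraries were prepared by the submitters from rRNA-depleted total RNA with strand kept. Per the study's methods, reads were aligned with HISAT2 to mouse mm10 and quantified with cuffdiff, whereas a human build, BWA and CASAVA 1.8 stand in the submitters' processing notes. Gene positions are those of GENCODE M21 (GRCm38). For mRNA (per gene) and lncRNA (per transcript) the authors deposited FPKM values. The deposited estimated counts are scaled by library, and fragments were recovered from them by dividing by the value of 1 fragment (92.1 to 93.0% of values up to 200 fragments were whole within 0.05) and rounded. For circRNA the authors deposited raw counts of junction reads. Estimated counts of lncRNAs and circRNA log2 CPM were not used.

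Log2(FPKM + 0.1) was fitted for the 13517 genes averaging 0.5 FPKM or more with limma 3.58.1 (mean trend, 12 libraries in 1 fit, 6 contrasts, two-sided, Benjamini-Hochberg over all genes) in R 4.3.3. The alternatives were no low-value filter or one of 1 FPKM, a pseudocount of 1 FPKM, shifting libraries to a common median, quantile normalization, 2 groups alone, the replicate block, robust empirical Bayes, edgeR 4.0.16 on recovered fragments with TMM or RLE factors, and fits without or with a term for the libraries that stand apart or without each library in turn. The fits were tested on simulated data. Members and lists were chosen with earlier results of these data known. Named genes were the 3 highest and 3 lowest fold changes per comparison (mean of at least 1 FPKM), the 5 highest and lowest means, the 5 largest SDs, a fixed set of members with known roles and the paralogue pairs. 1 gene outside the members is not reported here. Of other lists up to 3 genes of the highest level were named. Rps28 and Rpl4 were chosen after their values were seen. Tables were handled in Python 3.11.15 (pandas 2.3.3) and plotted with matplotlib 3.10.9.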

Additional observations from a re-analysis of the deposited data

How the results depend on the processing

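0 members were called under any of the alternatives in all 6 comparisons, except 1 (Rpl36 in RE against E, 0 to 1 over the fits that leave out a library). Of 108 medians 107 moved by less than the spread between replicates (pooled SD 0.120 on the log2 scale). The exception was F against control, which ranged from -0.26 to -0.080 without 1 library and was -0.080 without control 2. The medians of RE against control, RE against E, E against F and RE against F were smaller than this spread in size. For them the count cannot show whether a median was lost or reversed. Without control 2 RE against control went from -0.11 to 0.01, and without RE 4 RE against E went from 0.02 to -0.04. The number of members with an unadjusted p under 0.05 was less stable. The share of all tested genes also moved. It is given in brackets, for a lower level against control and a higher level elsewhere unless stated. For F against control (21) it was 32 with edgeR (3.66% with TMM, 3.91% with RLE) and 39 with the library term (4.81%). Without 1 library it was 10 to 27 (2.16 to 3.51%). For E against control (10) it was 21 with a common median (2.55%) and 24 with the term (2.84%). With edgeR it was 22 (2.24% with TMM, 2.42% with RLE), and without 1 library 7 to 17 (1.01 to 2.06%). For RE against control (4) it was 1 with 2 groups alone (3.75%), 8 with RLE (6.16%) and 10 in the 8 libraries (7.74%). With the term it was 14 (8.32%), and without 1 library 3 to 9 (2.98 to 7.53%). For RE against E (1) it was 3 with a common median (5.68%) and 4 with edgeR (5.95% with TMM, 5.96% with RLE). Without a filter it was 3 (1 lower and 2 higher, against 5.59 and 2.87%). With the term it was 4 (1 lower and 3 higher, against 10.3 and 5.25%). Without 1 library it was 1 to 2 (2.11 to 3.97%). For E against F (3) it was 5 with quantile normalization (5.26%) or the term (8.88%). In the 8 libraries it was 9 (1 lower and 8 higher, against 5.94 and 8.20%). Without 1 library it was 2 to 5 (4.51 to 6.01%). For RE against F (6) it was 10 with a common median (3.47%), 11 with quantile normalization (3.4%) and 12 with the term (4.6%). In the 8 libraries it was 10 (1 lower and 9 higher, against 8.63 and 4.68%). Without 1 library it was 3 to 8 (1.46 to 4.11%). The causes were not tested.

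Replicate numbers did not pair the libraries (correlations of same-numbered libraries from -0.30 to 0.24). Only RE had libraries numbered 4 and 5, so the replicate block took up RE 4 and RE 5 and left RE to RE 3 alone. Its RE comparisons are therefore given as effect sizes only and do not show an effect of pairing. In them Rpl7a (0.18 in RE against E, 0.062 in RE against F) and Rpl15 (-0.067 and -0.023) changed sign. Of 900 values of named members under alternatives 29 changed sign. In F against control Rpl21 was at -0.0075 with quantile normalization, -0.0058 with RLE and -0.075 in the 8 libraries, Rps15a at -0.083 with TMM and -0.089 with RLE, and Rpl5 at 0.099 in the 8 libraries. Without 1 library, the ranges in F against control were -0.12 to 0.36 for Rps15a, -0.060 to 0.15 for Rpl21, -0.33 to 0.060 for Rplp0, -0.33 to 0.12 for Rplp2, -0.37 to 0.0057 for Rpsa, -0.16 to 0.079 for Rpl5, -0.49 to 0.012 for Rpl10 and -0.23 to 0.035 for Rps3. Rps12 ranged from -0.23 to 0.61 in E against control, from -0.34 to 0.50 in RE against control and from -0.041 to 0.78 in RE against F, Rpl5 from -0.021 to 0.22 in RE against control, Rpl7a from -0.43 to 0.088 in RE against E and Rps15a from -0.63 to 0.012 in E against F.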

Other observations

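Noncoding transcripts beside members were few. Of 27 lncRNA-table transcripts that lay in or next to a member, 7 averaged at least 1 FPKM. Of these 7, 0 were above every control library in all 3 libraries of RE, E or F. The shares of all lncRNA-table transcripts averaging at least 1 FPKM were 8.02% (RE), 7.61% (E) and 4.56% (F). In the other direction 2 of the 7, Rpl41 uc029rju.1 and Rps4l, were below every control in all 3 RE libraries and in all 3 E libraries. The shares of the 3180 lncRNA-table transcripts averaging at least 1 FPKM were 4.75% (RE) and 2.36% (E). In F 0 of the 7 were below every control, against 4.06%. Rpl41 uc029rju.1 had 131, 153 and 169 FPKM in RE 3, 4 and 5 and 93.5, 108 and 139 FPKM in E 1, 2 and 3, against 191, 234 and 177 FPKM in control 1, 2 and 3. The most abundant was a copy of the signal recognition particle RNA (Metazoa_SRP) listed as bidirectional to Rps29. Its value was 0 in control 1 and between 6253 and 10797 FPKM in the 11 others. The Rps4l transcript (NR_003634) averaged 10.7 FPKM, against 0.12 FPKM for the row named Rps4y2 in the mRNA table, whose gene identifier GENCODE gives to Rps4l. Its values were 5.85, 9.44 and 9.27 FPKM in RE 3, 4 and 5, 6.81, 6.89 and 8.11 FPKM in E 1, 2 and 3 and 20.7, 13.1 and 9.71 FPKM in F 1, 2 and 3, against 9.56, 18.4 and 11.1 FPKM in control 1, 2 and 3. RE and E lay below the controls, RE 4 by little, while F and control mice overlapped. These differences were not tested, and RE and E share the 3 controls.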
